A study of Mus musculus with 4 samples.

Results

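The genes described here make cholesterol and fatty acids: 20 sterol members (the mevalonate and sterol pathway, with Srebf2, Insig1 and Stard4) and 10 fatty acid members (Srebf1, Fasn, Acly, Acaca, Scd1, Scd2, Elovl6, Fads1, Fads2 and Thrsp). They were chosen by symbol, with earlier results of these data known, as 30 of the 32285 genes in the tables, and all 30 were found. In the cells that were kept, the sterol members held between 3536 (Lss) and 58403 (Hmgcs1) UMIs each, and the fatty acid members between 3055 (Thrsp) and 70667 (Scd2). A UMI, or unique molecular identifier, marks 1 captured transcript end, so levels do not scale with gene length.

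Cells came from the subdural meninges, the thin membranes on the cerebellar surface, and were measured by droplet single-cell RNA sequencing with 10x Genomics 3' chemistry. The study set 2 NdpKO libraries against 2 NdpWT libraries, and every mouse of both genotypes was C57BL/6 and carried Neurod2-SmoA1 on 1 allele (SmoA1+/-), so the controls carried the transgene too. The transgene expresses a constitutively active Smoothened, which relays Hedgehog signals into the cell, from the promoter of the neuronal gene Neurod2, and Ndp encodes norrin, a secreted ligand of Fzd4. Each library was a pool of 5 cerebella from 3 litters, taken at days 6 to 8 after birth in one label and days 7 to 9 in another, with dura and choroid plexus left aside, Dispase II digestion and a 22% Percoll spin. Which part of Ndp is deleted is not given in the labels. Ndp stood at 0.411 and 0.470 CPM (a gene's UMIs scaled to the common total that the unit names, over the same cells) in NdpKO libraries, against 2.07 and 1.35 CPM in NdpWT libraries.

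Cells build cholesterol from acetyl-CoA through mevalonate, isoprenoids and squalene, and the transcription factor SREBP2, the product of Srebf2, switches on nearly every enzyme of that route when membrane sterol falls. SREBP1, from Srebf1, acts more on fatty acid synthesis, in which citrate is split to acetyl-CoA, carboxylated, elongated to palmitate and then desaturated. In the brain cholesterol is made locally, since lipoproteins of the blood do not cross the blood-brain barrier; myelinating oligodendrocytes and astrocytes are known for high synthesis, and granule neuron progenitors driven by Hedgehog are known to need sterols, which Smoothened binds.

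The 4 libraries held 114363848 to 125981161 UMIs in 12904 to 19134 barcodes, and 5599, 10676, 9079 and 12561 cells were kept in NdpKO replicates 1 and 2 and NdpWT replicates 1 and 2. NdpKO replicate 1 stood apart: the share of barcodes kept by the cell filter was 44.1%, against 64.8% to 67.0% in the other 3 libraries, and its median depth was 14296 UMIs a cell, against 7220 to 9464. Pairs of libraries shared 15 to 47 cell barcodes, at most 0.44% of the smaller library. The 76 genes of the lipid lists, members included, were left out of the genes that formed the clusters, so the classes and stages below were not built on them. Genotypes were compared in 9 classes, each with 50 or more cells per library: fibroblast, granule lineage, macrophage, endothelial, erythroid, mural, other neuron, monocyte or dendritic, and an unnamed cluster led by Ecrg4 and Nppc. The names follow fixed markers, so high sums of these in the class they named follow from the naming and are no check of it. The 16 granule lineage markers, used with stage markers for that name, summed to 3181 to 4923 CPM in granule lineage and 188 to 335 CPM in endothelial cells. The 10 endothelial markers summed to 8470 to 9890 CPM in endothelial and 27.1 to 87.4 CPM in granule lineage cells. Astroglial (22, 34, 138 and 41 cells, in the library order above) and oligodendrocyte lineage cells (45, 49, 185 and 79) were too few to be tested by genotype, and their levels are given as a description.

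The promoters are shown because most sterol members rose into S phase, and most rose at the exit from the cycle, in the granule lineage stages below. RefSeq promoters (build GRCm38.p6) were at hand for 16 of the 20 sterol and 7 of the 10 fatty acid members, and 3 motifs were searched on both strands in the 250 bases before each start. CCAAT, the box bound by NF-Y, a usual partner of SREBP, was found for 15 of the 16 sterol members, against 3 of the 7 fatty acid members and 37.5% of all genes with a promoter in the table. GGGCGG, the core of an Sp1 site, was likewise found for 15 of the 16 sterol members and 3 of the 7 fatty acid members, against 35.4% of all genes. TCACNCCAC, a sterol regulatory element, was found for Hmgcs1 among the sterol members and for 0 fatty acid members, against 1.22% of all genes. Its first base lies 137 bases before the Hmgcs1 start, and no match of it shared a base with a CCAAT match in a member. In the 120-base stretches here, capitals mark TCACNCCAC, and CCAAT read on either strand. Hmgcs1, Mvd, Mvk and Nsdhl are sterol members that lie at chr13:119690159-119690278 (plus strand), chr8:122443423-122443542 (minus), chr5:114444149-114444268 (plus) and chrX:72918401-72918520 (plus), and Fasn, a fatty acid member, lies at chr11:120824548-120824667 (minus).
Hmgcs1: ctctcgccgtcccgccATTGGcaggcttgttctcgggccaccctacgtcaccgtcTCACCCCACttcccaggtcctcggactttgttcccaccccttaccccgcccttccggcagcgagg
Mvd: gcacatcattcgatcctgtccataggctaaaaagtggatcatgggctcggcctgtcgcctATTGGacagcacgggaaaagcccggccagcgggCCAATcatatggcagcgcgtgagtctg
Mvk: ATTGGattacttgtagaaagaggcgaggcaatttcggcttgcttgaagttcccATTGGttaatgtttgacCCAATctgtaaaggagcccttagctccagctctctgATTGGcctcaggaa
Nsdhl: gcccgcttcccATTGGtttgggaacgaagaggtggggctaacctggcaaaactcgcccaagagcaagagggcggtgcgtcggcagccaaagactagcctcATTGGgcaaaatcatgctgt
Fasn: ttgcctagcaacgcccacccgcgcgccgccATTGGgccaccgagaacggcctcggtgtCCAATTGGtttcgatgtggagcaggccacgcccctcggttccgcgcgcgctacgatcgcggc
Mvk holds 4 CCAAT boxes in this stretch, Fasn 3, Mvd and Nsdhl 2 each, and Hmgcs1 1 beside its sterol element. A match is a run of letters and not a measured site.

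Sterol synthesis genes were highest in the glial cells of the preparation, then in the granule lineage. Summed over the 20 sterol members, the mean level of the 4 libraries was 3568 CPM in oligodendrocyte lineage cells, 3006 CPM in astroglial cells and 1520 CPM in granule lineage cells, against 392 to 834 CPM in the 9 remaining classes with enough cells for a level. In a test of each class against the mean of the others with library as a block (edgeR), 19 sterol members were higher and 1 was lower in astroglial cells, where 22.1% of all genes were called higher. In oligodendrocyte lineage cells 18 were higher and 0 lower, against 24.4% of all genes called higher, and in granule lineage cells 17 were higher and 0 lower, against 42.5%. Endothelial cells went the other way, with 16 sterol members lower and 1 higher, where 24.1% of all genes were called lower. So did monocyte or dendritic cells (16 lower), fibroblasts (15), macrophages (14), the Ecrg4 and Nppc cluster (14) and T or NK cells (13). In these classes 0 to 2 were higher, and 19.4% to 32% of all genes were called lower. Mural cells had 9 lower and 2 higher, other neurons 9 and 5, and erythroid cells 2 and 7. All genes called lower there were 21.8%, 30.8% and 23.4%, and higher 22.1%, 26.4% and 23%. The mean of the others includes the glial cells in each case. The member that was higher in endothelial cells was Stard4, a carrier that moves cholesterol between membranes, by 1.10 on the log2 scale.

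Hmgcs1, the synthase that makes HMG-CoA, was the highest sterol member in both. In astroglial cells it stood at 781 and 1072 CPM in NdpKO libraries and at 892 and 509 CPM in NdpWT libraries, so the genotypes overlapped. In oligodendrocyte lineage cells it stood at 816 and 520 CPM in NdpKO libraries, against 1268 and 1229 CPM in NdpWT libraries. Both knockout libraries were lower there, as was the summed sterol level, 3267 and 2546 CPM in NdpKO against 4059 and 4398 CPM in NdpWT, but the cells were 45 and 49 against 185 and 79 and the difference was not tested.

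The fatty acid members had another order. Astroglial cells led with a summed mean of 2864 CPM, then oligodendrocyte lineage cells with 1484 CPM and granule lineage cells with 645 CPM, and the 9 remaining classes lay between 171 and 510 CPM. The largest astroglial member was Scd2, the main oleate-making desaturase of the brain, with a mean of 1600 ± 459 CPM (SD, n = 4), at 2083 and 1849 CPM in NdpKO and 1415 and 1051 CPM in NdpWT libraries. The front-end desaturase Fads2 was at 522 and 363 CPM in NdpKO astroglia and 257 and 177 CPM in NdpWT astroglia. Both desaturases were higher in both knockout libraries, untested with 22 to 138 cells a library, and erythroid markers in these cells varied from 604 to 38355 CPM between libraries. In the test against the other classes 9 fatty acid members were called higher in astroglial cells, where 22.1% of all genes were. The 10th was Acly, the citrate-splitting enzyme, at a log2 difference of 0.17. Srebf1 parted the glia: its log2 difference was 2.19 in astroglial cells and -1.19 in oligodendrocyte lineage cells. In the latter 8 of the fatty acid members were nonetheless called higher, against 24.4% of all genes.

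**Figure D1:**
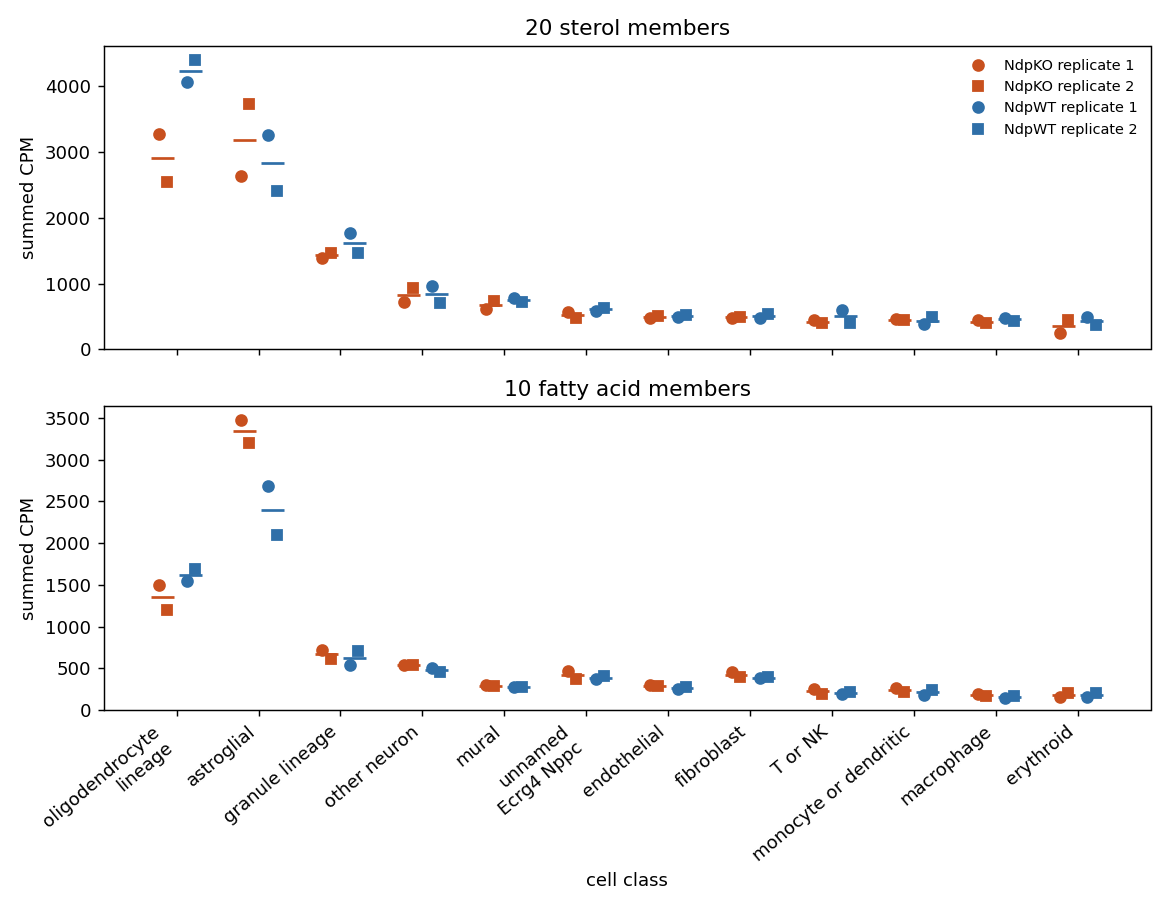
Summed CPM of the 20 sterol members (top) and the 10 fatty acid members (bottom) by cell class on a linear axis, 1 point per library, NdpKO left of NdpWT, with bars at the mean of each genotype. Oligodendrocyte lineage and astroglial cells stand highest, granule lineage cells follow at a mean of 1520 and 645 CPM, and in astroglial cells the fatty acid sum of both NdpKO libraries lies above that of both NdpWT libraries.

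Within the granule lineage the sterol genes stood higher in later stages, while the fatty acid sum lay between 547 and 711 CPM. Granule neurons arise from cycling progenitors on the cerebellar surface, leave the cell cycle and mature. Subclusters of cells were placed in 6 stages by fixed markers: progenitor, S phase, mitotic, newly postmitotic, intermediate and maturing. Intermediate cells had equal marker counts for the newly postmitotic and maturing names. The progenitor name rested on 3 progenitor markers, the fewest allowed, beside 2 S phase and 2 maturing markers. Progenitor markers counted more in the S phase subclusters (8 and 6) and the mitotic subclusters (6 in each). A subcluster of 697 cells, with 4 progenitor and 4 mitotic markers, got no stage. Results for progenitors and for the step into S phase depend on this naming. The sterol sum averaged 842 CPM in progenitors, 1444 in S phase, 1286 in mitotic, 2023 in newly postmitotic, 2183 in intermediate and 2270 in maturing cells. Over the same stages the fatty acid sum averaged 640, 711, 603, 588, 547 and 581 CPM.

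The sterol rise came at entry to S phase and at the exit from the cycle. From progenitor to S phase cells, 18 of the 20 sterol members rose and 0 fell (edgeR with library as a block, adjusted over all genes; median log2 difference 0.69, against a median of -0.01 for all genes, of which 26.2% were called higher). Mvd and Lss were the exceptions, at 0.20 and 0.23. From mitotic to newly postmitotic cells, 16 rose and 1 fell (median 0.48, against 0.01, with 31.5% of all genes called higher). Stard4 was the one that fell, by 0.26. Between S phase and mitotic cells the members were split, 5 higher and 7 lower with 20.3% and 20.6% of all genes called in these directions. The last steps were smaller: 4 sterol members rose and 6 fell from newly postmitotic to intermediate cells (17.9% and 19.7% of all genes), and 3 rose from there to maturing cells (9.14% of all genes).

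Hmgcs1 took both steps. Its mean over the 4 libraries was 78.5 ± 14.04 CPM in progenitors, 172 ± 40.2 in S phase, 163 ± 33.2 in mitotic, 392 ± 65.1 in newly postmitotic, 483 ± 75.9 in intermediate and 532 ± 87.5 CPM in maturing cells (SD, n = 4). The log2 difference was 1.20 ± 0.07 (SE) into S phase and 1.18 ± 0.06 at the exit from the cycle (adjusted p = 3.2e-16 and 3.5e-18, edgeR). Mvd, the decarboxylase that makes isopentenyl pyrophosphate, passed at the exit from the cycle and not before. It stood at 23.3 ± 3.54 CPM in progenitors, 24.4 ± 3.19 in S phase and 22.2 ± 2.49 in mitotic cells, and at 92.1 ± 6.16 CPM in newly postmitotic cells (log2 difference 1.94 ± 0.09, adjusted p = 1.0e-22, edgeR), with no overlap between the libraries of these stages. Idi1, which isomerises isopentenyl pyrophosphate, passed at entry to S phase and not at the exit from the cycle, with means of 73.2 CPM in progenitors, 156 in S phase, 104 in mitotic and 116 CPM in newly postmitotic cells.

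The transcription factor Srebf2 rose with its pathway and Srebf1 went the other way. Srebf2 averaged 55.9 ± 7.19 CPM in progenitors, 76.1 ± 12.5 in S phase, 82.7 ± 6.64 in mitotic, 123 ± 16.7 in newly postmitotic, 154 ± 28.4 in intermediate and 167 ± 27.8 CPM in maturing cells (SD, n = 4), and each of the first 4 steps passed the test, by 0.52, 0.19, 0.47 and 0.23 on the log2 scale (the 4th did not pass without NdpKO replicate 2, at 0.16 with adjusted p = 0.129, or without the filter on low counts, at 0.14 with adjusted p = 0.236, edgeR). Srebf1 averaged 75.7 ± 15.4 CPM in progenitors, 57.8 ± 15.8 in S phase, 44.1 ± 15.1 in mitotic, 8.05 ± 1.90 in newly postmitotic, 3.67 ± 1.84 in intermediate and 4.66 ± 1.73 CPM in maturing cells. It fell by 0.33 into S phase, by 0.34 into mitosis, by 2.51 ± 0.13 at the exit from the cycle (adjusted p = 9.4e-21, edgeR) and by 1.40 into the intermediate stage. The first of these falls was no longer called without NdpKO replicate 2 (fell by 0.22, adjusted p = 0.0521, edgeR; the 6 other alternatives gave 0.000786 to 0.00274). The highest library of the newly postmitotic stage, at 10.3 CPM, lay below the lowest mitotic library, at 24.1 CPM.

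**Figure D2:**
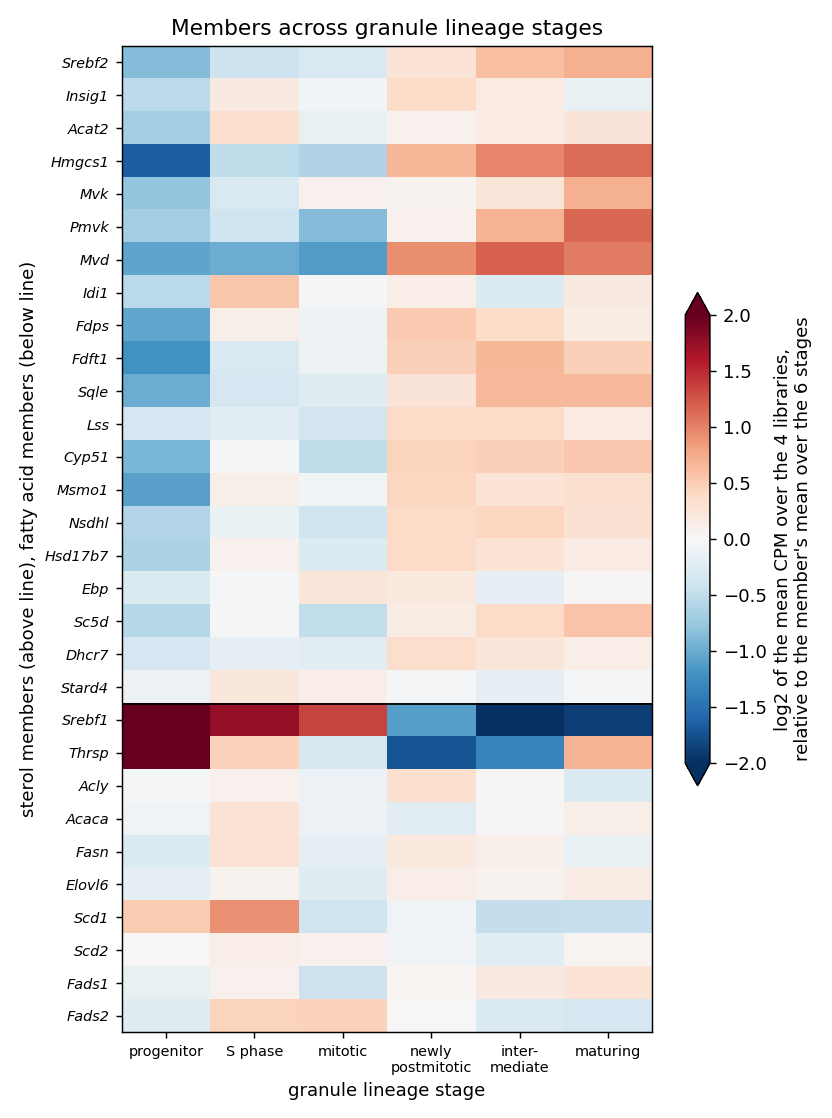
Each of the 30 members across the 6 granule lineage stages, as the log2 of its mean CPM over the 4 libraries relative to its own mean over the stages, with sterol members above the line and fatty acid members below it. Hmgcs1 is lowest in progenitors, at a mean of 78.5 CPM, Mvd steps up between mitotic and newly postmitotic cells, and Srebf1 and Thrsp are highest in progenitors; colours end at -2 and 2.

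From progenitor to S phase cells 8 fatty acid members rose, by 0.19 to 0.75 on the log2 scale, while Srebf1 and Thrsp fell (26.2% of all genes were called higher there and 20.8% lower). Fasn, the synthase that makes palmitate, averaged 58.7 CPM in progenitors, 87.3 in S phase, 62.6 in mitotic, 81.6 in newly postmitotic, 76.4 in intermediate and 64.7 CPM in maturing cells. Acaca, the carboxylase ahead of it, lay between 42.7 and 60.7 CPM in all 6 stages. At the exit from the cycle 4 fatty acid members rose and 5 fell, where 31.5% of all genes were called higher and 32.2% lower, and Fads2 was among those that fell, by 0.56.

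Thrsp, also named Spot 14, is a nuclear and cytosolic protein that in liver and mammary gland raises fatty acid synthesis and answers to thyroid hormone; the gene (ENSMUSG00000035686) lies on chromosome 7, 97412938 to 97417730 on the minus strand of GRCm38. Its mean level was 316 ± 165 CPM in astroglial cells (SD, n = 4), 39.2 CPM in granule progenitors, 22.5 ± 4.91 CPM in other neurons and 0.43 to 4.94 CPM in the remaining classes outside the granule lineage. Among the stages it averaged 39.2 ± 15.9 CPM in progenitors, 11.3 ± 8.45 in S phase, 6.63 ± 4.71 in mitotic, 2.50 ± 1.40 in newly postmitotic, 3.31 ± 2.41 in intermediate and 13.2 ± 7.55 CPM in maturing cells. It fell by 1.74 ± 0.26 on the log2 scale into S phase (adjusted p = 3.0e-05, edgeR) and by 1.44 at the exit from the cycle (adjusted p = 0.0119, edgeR, which became 0.0997 without NdpWT replicate 1, the highest of the 7 alternatives). The difference between the lowest stages, newly postmitotic and intermediate, did not pass (0.39 ± 0.79).

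The effect of Ndp loss was asked for each member. In the 9 classes 258 tests of a member were made, and 0 passed an adjusted p of 0.05 (edgeR's quasi-likelihood test, adjusted over all genes of the class), with 13 of the 258 (5.04%) at an unadjusted p under 0.05, against 1.63% to 12.5% of all genes in the 9 classes. DESeq2 called 1 member in 1 class, Thrsp in granule lineage cells. Over all genes the share called was 2.17% in endothelial cells, 0.0452% in fibroblasts, 0.056% in macrophages, 0.0369% in mural cells and 0.0107% in other neurons, and 0 genes were called in the erythroid, granule lineage and monocyte or dendritic classes and in the Ecrg4 and Nppc cluster. In the 6 granule lineage stages 175 tests were made, 20 (11.4%) had an unadjusted p under 0.05, against 2.55% to 3.58% of all genes by stage, and 1 passed the adjusted threshold, Thrsp in S phase cells. The background there was 0.00768% of all genes in S phase, 0.0173% in progenitors and 0 genes in the other 4 stages. The members were chosen with earlier results of these data known. The stages come from the same libraries, and a member such as Thrsp is counted once in each stage. These shares therefore describe the members and are no test of them. All 20 sterol members were tested in every stage; of the fatty acid members, 10 were tested in the first 4 stages, 7 in the intermediate stage and 8 in the maturing stage, because low genes were filtered.

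Thrsp fell in knockout granule lineage cells in S phase. It stood at 5.57 and 3.60 CPM in NdpKO libraries, against 14.3 and 21.9 CPM in NdpWT libraries, from 36 and 42 against 133 and 229 UMIs. Both knockout libraries lay below both wild-type libraries, and the change was -2.05 ± 0.28 on the log2 scale (SE, 2 libraries a genotype), or 0.242 times the wild-type level, with adjusted p = 0.0423 (edgeR). Of 13028 genes tested in this stage, Thrsp was the one that passed; with a stricter cell filter its adjusted p was 0.083, and it passed in the 8 other alternatives. Mitotic cells had 2.42 and 2.76 CPM in NdpKO and 9.99 and 11.4 CPM in NdpWT libraries, again without overlap, a change of -2.04 ± 0.33 that missed the threshold (unadjusted p = 1.36e-05, adjusted p = 0.116, edgeR; 4 of 9 alternatives passed). Progenitors had 34.5 and 19.3 CPM in NdpKO and 55.9 and 47.2 CPM in NdpWT libraries (-0.99 ± 0.24, adjusted p = 0.38, edgeR, which passed in 2 of 9 alternatives).

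Later stages gave no call. Newly postmitotic cells had 0.913 and 2.29 CPM of Thrsp in NdpKO and 2.49 and 4.31 CPM in NdpWT libraries, without overlap, from 3 to 23 UMIs (-0.89 ± 0.56, adjusted p = 1, edgeR). In the intermediate stage 1 to 8 UMIs a library were too few for the filter, and in maturing cells 6.34 and 12.6 CPM in NdpKO against 10.1 and 23.9 CPM in NdpWT libraries overlapped (-0.39 ± 0.48, adjusted p = 0.999, edgeR). Over the whole granule lineage the level was 7.55 and 5.24 CPM in NdpKO and 13.9 and 21.7 CPM in NdpWT libraries, a change of -1.50 ± 0.28 with adjusted p = 1 (unadjusted p = 0.00101, edgeR). DESeq2 gave an adjusted p of 0.0103 for it, and edgeR gave 0.0036 without NdpWT replicate 1. Progenitors, the stage with the most Thrsp, made up 13.1% and 10.4% of the NdpKO and 10.5% and 24.2% of the NdpWT granule lineage cells that were split into stages. The totals behind these shares include cells that got no stage. The part of the shares in the whole-lineage values was not tested.

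Whether the change differed between stages was tested as the log2 change of a stage minus the mean change of the others. For Thrsp this was -1.17 ± 0.41 in S phase (unadjusted p = 0.00974, adjusted p = 1, edgeR) and -1.12 ± 0.50 in mitotic cells (unadjusted p = 0.0378, adjusted p = 1, edgeR), and 0.09 ± 0.35 in progenitors. Of the 13128 genes in this test 0 were called in these 3 stages. Over the 6 stages 180 member tests gave 0 calls, with 8 (4.44%) at an unadjusted p under 0.05, against 3.30% to 7.77% of all genes by stage.

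**Figure D3:**
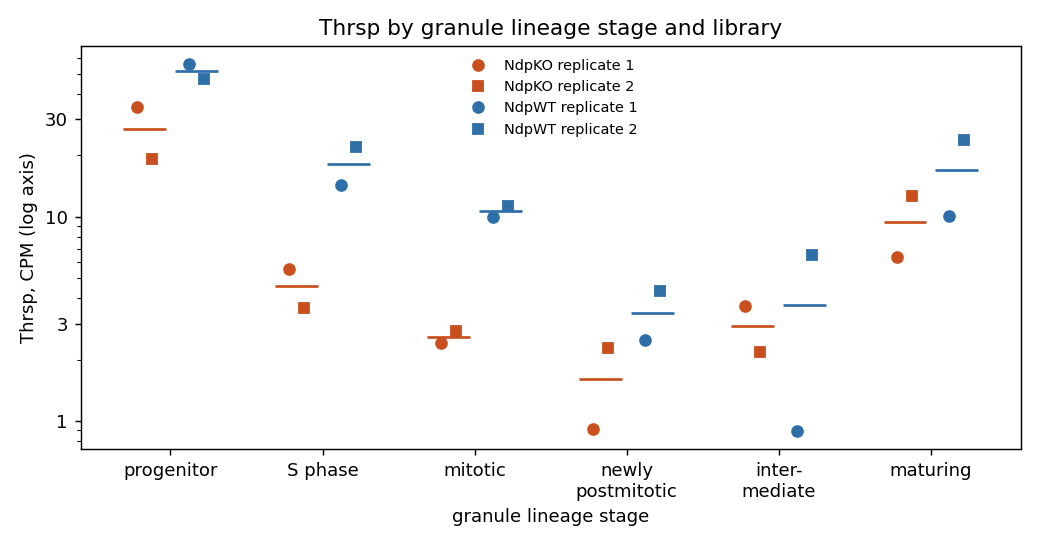
Thrsp in CPM on a log axis by granule lineage stage, 1 point per library, NdpKO left of NdpWT, with bars at the mean of each genotype. In progenitor, S phase, mitotic and newly postmitotic cells both NdpKO libraries lie below both NdpWT libraries; in intermediate and maturing cells they overlap, and the newly postmitotic and intermediate points rest on 1 to 23 UMIs.

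The share of S phase cells with a Thrsp UMI was also lower in both knockout libraries. With every cell thinned to 3000 UMIs, which left out 5, 6, 5 and 5 shallower S phase cells, 0.735% and 0.641% of NdpKO S phase cells had a Thrsp UMI, with exact 95% binomial intervals of 0.0892% to 2.63% and 0.208% to 1.49%. The NdpWT shares were 3.43% (2.11% to 5.25%) and 5.99% (4.49% to 7.80%); all intervals cover counting error only. Before thinning the shares were 7.94% and 4.07% in NdpKO and 12.4% and 16.7% in NdpWT, at median depths of 23451 and 14806 against 16097 and 12155 UMIs. Macrophages and fibroblasts were taken as cells without Thrsp, which was not tested. They held a UMI in 0.111% to 0.663% of thinned cells, at median depths of 8065 to 29449 UMIs before thinning. In the knockout libraries alone this background was 0.111% to 0.230%. The knockout S phase shares lay above it, with lower interval limits that reach into or below it. Endothelial cells had 1.72% and 2.21% in NdpKO and 1.45% and 0.754% in NdpWT, all above the knockout S phase shares. Newly postmitotic cells had 0.873% and 0.361% in NdpKO and 0.552% and 1.37% in NdpWT, a range that holds the knockout S phase shares. In progenitors the thinned shares were 8.72% and 4.56% in NdpKO and 10.3% and 12.1% in NdpWT, above the macrophage and fibroblast shares in all 4 libraries.

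Other cell types' RNA in the S phase cells was measured beside this result. The 10 astroglial markers, none of them at 0, summed to 219.8 and 219 CPM in NdpKO and 194 and 216 CPM in NdpWT S phase cells. Aqp4, which reached 2606 to 5072 CPM in astroglia, was at 0.774 and 2.23 CPM in NdpKO and 2.47 and 1.34 CPM in NdpWT S phase cells. The 10 progenitor markers summed to 3474 and 3297 CPM in NdpKO and 3088 and 3651 CPM in NdpWT. Macrophage markers did move with genotype there, with sums of 30.5 and 31.1 CPM in NdpKO against 80.1 and 62.6 CPM in NdpWT and 10 of 11 markers lower in both knockout libraries, as did 5 of 8 erythroid markers, with sums of 752 and 587 CPM against 825 and 1138 CPM. Of the 13 oligodendrocyte lineage markers 8 were lower in both knockout libraries, with sums of 192 and 173 CPM against 209 and 200 CPM. Among all genes tested in S phase cells, 12% were lower in both knockout libraries. Thrsp itself stood at 0.46 to 1.98 CPM in macrophages; the part of free RNA in the result was not tested.

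Outside the granule lineage Thrsp gave no call. In astroglial cells, where it is highest, it was at 125 and 255 CPM in NdpKO and 377 and 509 CPM in NdpWT libraries, from 53 and 90 against 524 and 92 UMIs in 22 and 34 against 138 and 41 cells. Both knockout libraries were lower in CPM, and the class was too small to test. The shares of thinned astroglial cells with a Thrsp UMI overlapped. They were 29.4% and 50% in NdpKO and 49.4% and 64.3% in NdpWT, from 17 and 18 against 79 and 14 cells. In endothelial cells Thrsp was higher in both knockout libraries without passing, with 4.85 and 7.84 CPM in NdpKO and 4.04 and 3.04 CPM in NdpWT libraries (0.87 ± 0.40, adjusted p = 0.404, edgeR). Other neurons had 24.3 and 18.6 CPM in NdpKO and 28.6 and 18.4 CPM in NdpWT (-0.22 ± 0.35), erythroid cells 2.12 and 0.685 CPM against 1.59 and 7.06 CPM (-1.66 ± 0.78), and fibroblasts 0.863 and 0.763 CPM against 1.26 and 1.58 CPM (-0.82 ± 0.37). In macrophage, monocyte or dendritic and mural cells and in the Ecrg4 and Nppc cluster it had 0 to 14 UMIs a library and was not tested. The granule lineage change differed from the mean of the other classes by -0.88 ± 0.53 (adjusted p = 1, edgeR), and that of endothelial cells by 1.89 ± 0.78 (adjusted p = 0.371, edgeR).

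The sterol members summed to slightly less in knockout than in wild-type cells in every granule lineage stage, and none of them passed. Their summed level was 775 and 816 CPM in NdpKO and 893 and 886 CPM in NdpWT progenitors, 1259 and 1447 against 1587 and 1483 CPM in S phase, and 1174 and 1163 against 1424 and 1384 CPM in mitotic cells. It was 1909 and 1901 CPM in NdpKO and 2139 and 2144 CPM in NdpWT newly postmitotic cells, in intermediate cells 2163 and 1962 against 2345 and 2261 CPM, and in maturing cells 2215 and 2004 against 2430 and 2432 CPM. In each of the 6 stages both knockout sums were below both wild-type sums, with the NdpKO mean at 83.2% to 89.6% of the NdpWT mean. Over the granule lineage as a whole the sums overlapped, at 1384 and 1468 CPM in NdpKO and 1763 and 1466 CPM in NdpWT. Maturing cells, with the highest sterol sum, made up 7.30% and 9.89% of the NdpKO and 19.1% and 2.90% of the NdpWT granule lineage cells that were split into stages. Cells that got no stage are in these totals. The stages came from the same 4 libraries and are not independent of each other, no test was made of the sums, and the part of depth or free RNA in them was not tested. A further list of 13 other sterol genes differed. Its knockout sums lay above both wild-type sums in progenitors (NdpKO mean at 106.8% of NdpWT) and mitotic cells (102.5%). They lay below both in maturing cells (87.5%). In S phase, newly postmitotic and intermediate cells they overlapped (101.5%, 103.6% and 98.4%).

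**Figure D4:**
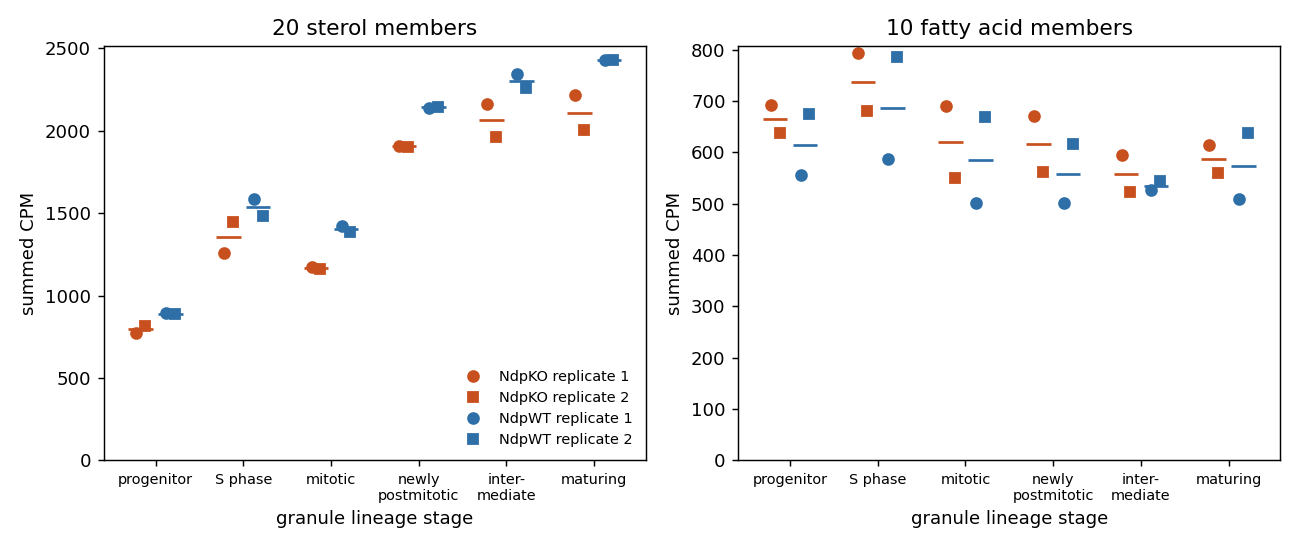
Summed CPM of the sterol members (left) and fatty acid members (right) by granule lineage stage on linear axes, 1 point per library, NdpKO left of NdpWT, with bars at the mean of each genotype. Sterol sums of both NdpKO libraries lie below both NdpWT libraries in each stage, while the fatty acid sums of the genotypes overlap in each stage.

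The differences of single members were small. The median log2 change of the 20 sterol members was -0.17 in progenitors, -0.20 in S phase, -0.27 in mitotic, -0.12 in newly postmitotic, -0.12 in intermediate and -0.24 in maturing cells, while the median of all genes lay within 0.01 of 0. Leaving out 1 library moved the S phase median to between -0.33 (without NdpKO replicate 2) and -0.06 (without NdpKO replicate 1), with -0.10 without NdpWT replicate 1. Without NdpKO replicate 2 the newly postmitotic, intermediate and maturing medians were -0.06, -0.07 and -0.10, and without NdpKO replicate 1 the newly postmitotic median was -0.21. In mitotic cells 18 of 20 members were lower and 13 were lower in both knockout libraries than in both wild-type libraries, where 12.2% of all genes were. The count without overlap was 8 in progenitors (13.4% of all genes), 7 in S phase (12%), and 9 in each of newly postmitotic (13.1%), intermediate (16.3%) and maturing cells (14.1%). Srebf2, the regulator, stood at 91.7 and 76.2 CPM in NdpKO and 79.9 and 83.0 CPM in NdpWT mitotic cells (0.02 ± 0.16), and the genotypes overlapped.

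Hmgcs1 had the smallest unadjusted p of the sterol members in these tests. It stood at 60.6 and 74.9 CPM in NdpKO against 92.9 and 85.7 CPM in NdpWT progenitors, at 134 and 136 against 201 and 180 CPM in mitotic cells, and at 330 and 344 against 465 and 427 CPM in newly postmitotic cells. Intermediate cells had 446 and 417 CPM in NdpKO and 591 and 477 CPM in NdpWT, and maturing cells 492 and 429 CPM against 619 and 588 CPM. The genotypes did not overlap in these 5 stages, and in S phase they did, with 127 and 170 CPM in NdpKO and 225 and 169 CPM in NdpWT. The change in mitotic cells was the largest of the 6, -0.52 ± 0.14 (unadjusted p = 0.00248, adjusted p = 0.852, edgeR), and it lay between -0.43 and -0.30 in the other stages, and it passed in none. Without NdpWT replicate 2 it passed in S phase (-0.64, adjusted p = 0.032, edgeR) and in mitotic cells (-0.62, adjusted p = 0.0205, edgeR), and in the other 8 alternatives of each it did not. Without NdpWT replicate 1 the S phase change was -0.18, and without NdpKO replicate 1 it was -0.24.

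Insig1, which holds the SREBP complex back in the endoplasmic reticulum and is itself an SREBP target, was at 65.5 and 55.6 CPM in NdpKO and 101.5 and 74.2 CPM in NdpWT mitotic cells, without overlap. Its change of -0.56 ± 0.18 did not pass (unadjusted p = 0.00785, adjusted p = 0.999, edgeR). Without NdpWT replicate 2 it did (-0.80, adjusted p = 0.00265, edgeR), and in the other 8 alternatives it did not, with a change of -0.28 without NdpWT replicate 1. NdpWT replicate 1 had the highest value of both Hmgcs1 and Insig1 in these cells.

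The sum of the fatty acid members overlapped between the genotypes in all 6 stages, for example 793 and 680 CPM in NdpKO and 586 and 785 CPM in NdpWT S phase cells, and the median log2 change of the list, Thrsp included, lay between -0.01 and 0.14. Srebf1 stood at 86.8 and 88.8 CPM in NdpKO and 55.6 and 71.5 CPM in NdpWT progenitors, without overlap (0.43 ± 0.16, unadjusted p = 0.0168, adjusted p = 1, edgeR). In S phase the genotypes overlapped for Srebf1, at 78.6 and 51.9 CPM in NdpKO and 41.1 and 59.5 CPM in NdpWT libraries. Scd2 was at 246 and 192 CPM in NdpKO and 178 and 225 CPM in NdpWT cells of the whole granule lineage, and Cyp51, the sterol demethylase, at 117 and 141 CPM against 161 and 149 CPM (-0.27 ± 0.15, adjusted p = 1, edgeR).

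**Figure D5:**
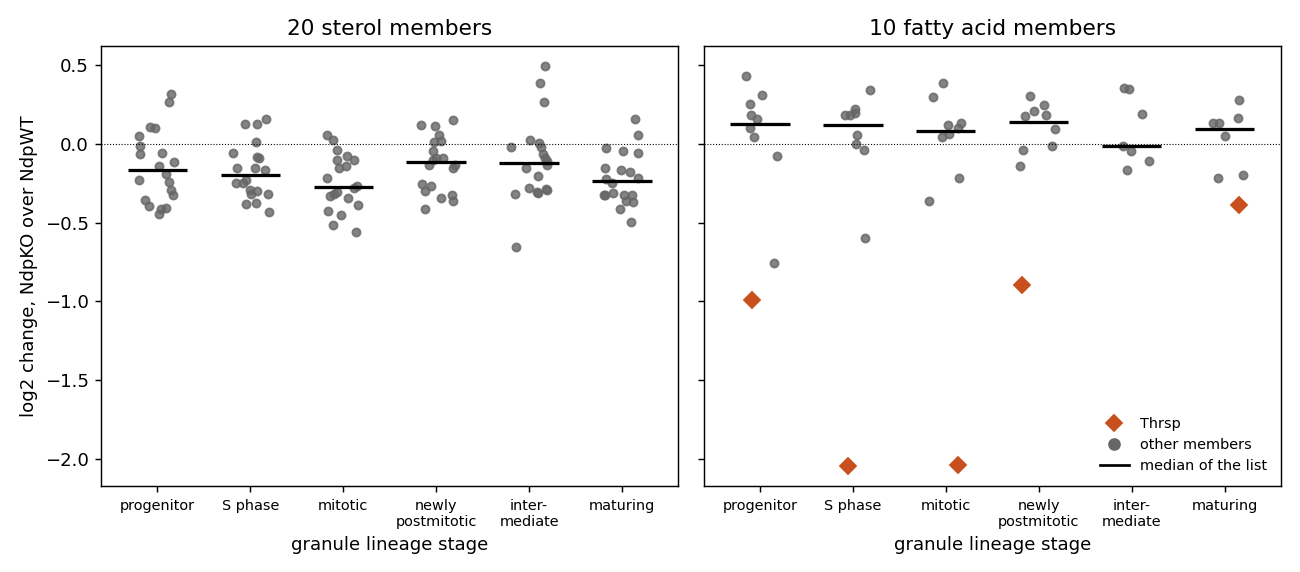
Log2 change, NdpKO over NdpWT, of every tested member by granule lineage stage, with the median of each list as a black bar and Thrsp as a diamond; points are spread sideways only to separate them. Sterol medians lie between -0.27 and -0.12, fatty acid medians between -0.01 and 0.14, and Thrsp is at -2.05 in S phase and -2.04 in mitotic cells.

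The other classes are described by their counts. In the unnamed cluster led by Ecrg4 and Nppc 17 of 20 sterol members were lower, 10 of them without overlap, where 16.3% of all genes were, at a median of -0.22 and a summed level of 574 and 479 CPM in NdpKO and 582 and 633 CPM in NdpWT libraries. Erythroid cells had 16 of 20 lower (median -0.29) but 2 without overlap, where 12.8% of all genes were. Fibroblasts, macrophages and mural cells had 14, 14 and 13 of 20 lower, with medians of -0.05, -0.13 and -0.13, and 5, 5 and 6 without overlap, against 18.5%, 14.2% and 21.7% of all genes. Other neurons had 13 of 20 lower (median -0.09) and monocyte or dendritic cells 8 of 17 (median 0.10). Leaving out 1 library moved these medians. The erythroid median ran from -0.62 without NdpKO replicate 2 to -0.0020 without NdpKO replicate 1, with -0.081 without NdpWT replicate 1, and the mural median from -0.28 to -0.014 without the same NdpKO libraries. The macrophage median ran from -0.31 without NdpKO replicate 1 to -0.013 without NdpKO replicate 2, with -0.033 without NdpWT replicate 1, and that of the Ecrg4 and Nppc cluster was -0.34 and -0.089 without these NdpKO libraries. The median changed sign in other neurons, to 0.085 without NdpKO replicate 1 and 0.086 without NdpWT replicate 1 (-0.21 without NdpKO replicate 2), and in monocyte or dendritic cells, to -0.082 without NdpWT replicate 1 (0.26 without NdpWT replicate 2). In fibroblasts it was 0.037 with the stricter cell filter, 0.048 in the largest cluster alone, and -0.098 to -0.019 when 1 library was left out. The fatty acid sum of both NdpKO libraries lay above both NdpWT libraries in endothelial cells, fibroblasts, macrophages, mural cells and other neurons. There the NdpKO mean was 106% to 115% of the NdpWT mean. In erythroid, granule lineage and monocyte or dendritic cells and in the Ecrg4 and Nppc cluster the fatty acid sums overlapped. These sums were not tested.

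In fibroblasts the members with an unadjusted p under 0.05 were Scd1, Cyp51 and Lss. Scd1, the desaturase of skin and liver, was at 15.2 and 14.01 CPM in NdpKO and 18.9 and 19.4 CPM in NdpWT fibroblasts (-0.40 ± 0.13, adjusted p = 0.393, edgeR; -0.16 with the stricter cell filter). In other neurons Idi1 and Nsdhl had log2 changes of -0.83 and -1.18 at adjusted p = 0.645 and 0.873 (edgeR). The front-end desaturase Fads1 had changes of 0.48 in macrophages and 0.44 in the Ecrg4 and Nppc cluster at adjusted p = 0.801 and 1 (edgeR). None of these passed. No difference of a member's change between classes passed: of 270 tests of the difference 0 passed and 11 (4.07%) had an unadjusted p under 0.05, against 3.16% to 9.64% of all genes, where 1.1% of all genes were called for endothelial cells and 0.0783% for fibroblasts.

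Endothelial cells, the class with the most genotype calls, gave no call among the members. Of 19 sterol members tested 12 were lower and 7 higher (median -0.07; 2 lower and 3 higher without overlap, against 19.2% and 23.1% of all genes), and of the 10 fatty acid members 7 were higher (median 0.19). The sterol median was 0.016 without NdpKO replicate 1, -0.13 without NdpKO replicate 2 and -0.11 without NdpWT replicate 1. The members of highest level were Scd2, at 146 and 133 CPM in NdpKO and 126 and 132 CPM in NdpWT, Hmgcs1, at 46.8 and 52.6 against 58.7 and 53.9 CPM, and Stard4, at 53.4 and 44.9 against 53.1 and 57.7 CPM. Their changes of 0.09 ± 0.13, -0.19 ± 0.15 and -0.19 ± 0.15 had adjusted p of 0.865, 0.704 and 0.722 (edgeR). Standard errors of this size limit what could be seen, and a missed threshold does not show equal levels.

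Abca1 and Lrp8, which move finished lipid rather than make it, fell in the knockout endothelium. Of 17 genes of lipid efflux and uptake, 16 were tested in endothelial cells and 2 passed, both lower, where 1.31% of all genes were called lower. Of the 16, 13 were lower and 3 higher. The list was chosen with earlier results of these data known, so these counts describe it and are no test of it. Abca1, which exports cholesterol to apolipoprotein A-I and is induced by oxysterols through LXR, was at 101.3 and 91.8 CPM in NdpKO and 232 and 201 CPM in NdpWT endothelial cells, without overlap (-1.18 ± 0.14, adjusted p = 0.00126, edgeR). Lrp8, the receptor for apolipoprotein E and reelin, was at 42.2 and 30.1 CPM in NdpKO and 147 and 150 CPM in NdpWT cells (-2.05 ± 0.17, adjusted p = 0.000225, edgeR). Both passed in all 10 alternatives. Of 15 tested among the 16 other fatty acid genes, 0 passed in this class (edgeR), with 2 at an unadjusted p under 0.05.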

How the data were processed

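Single cells of 2 NdpKO and 2 NdpWT libraries were measured with 10x Genomics 3' chemistry, and the deposited matrices hold raw UMI counts per gene and barcode, which the authors produced from reads; the submitters' processing notes name Cell Ranger 6.1.2 and mm10. Barcodes were kept from 500 genes and 1000 UMIs upward if mitochondrial UMIs did not exceed 10%. Scrublet, run per library, removed 97 to 257 doublets (1.7% to 2.59% of cells). The expected rate given to it was 10.3% to 15.3%, set as 0.8% per 1000 deposited barcodes, before the cell filter. Clustering (scanpy 1.11.5, 2000 variable genes, 30 components, 20 neighbours, Leiden resolution 1, or 0.8 for the stages) left out the 76 lipid genes. Cell names were rebuilt from fixed markers, with at least 3 per name, and 8885 cells were left out of the classes.

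Counts were summed per library and class or stage and tested with edgeR 4.0.16 in R 4.3.3 (quasi-likelihood, TMM, low genes filtered at a minimum count of 10), with Benjamini-Hochberg adjustment over all genes of each group and a threshold of 0.05. Printed CPM use plain totals and log2 changes use TMM. Class, stage and difference tests used library as a block; the step was tested on simulated data. Alternatives were DESeq2 1.42.0, RLE size factors, no filter, a stricter cell filter (at least 2000 UMIs, at most 5% mitochondrial), the replicate block, the largest cluster alone and leaving out each library.

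Each library pools animals of 3 litters, and per the labels each NdpWT run had an NdpKO run matched to it by litter, with no statement of which. The p-values rest on 2 libraries a genotype and treat these as independent; an exact permutation test of 2 against 2 cannot go below 0.333. The members and lists were chosen with earlier results of these data known. Members are given per library where they pass a test or are among the 3 highest of a class described, Thrsp everywhere, and other lipid genes where they pass in endothelial cells; Srebf1, Srebf2, Mvd, Idi1, Fasn, Insig1 and the members at an unadjusted p under 0.05 were chosen after their values were seen.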

Additional observations from a re-analysis of the deposited data

How the results depend on the processing

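RLE size factors moved none of the 98 results recomputed with them past a threshold, and using the largest cluster alone changed none of the 9 counts of members called by class. The count of members called by genotype was 0 in the granule lineage as a whole, against 1 (Thrsp) with DESeq2 and 0 to 1 when a library was left out. In S phase it was 1, against 0 with the stricter cell filter and 1 to 2 when a library was left out, with Hmgcs1 joining Thrsp without NdpWT replicate 2. In progenitors it was 0, against 1 (Thrsp) without the filter on low counts. In mitotic cells it was 0, against 1 (Thrsp) without that filter and 0 to 4 when a library was left out, the 4 being Hmgcs1, Insig1, Srebf1 and Thrsp without NdpWT replicate 2. Between intermediate and maturing cells 4 members were called, and 2 to 6 when a library was left out. Among the values recomputed, those that changed sign when a library was left out were Thrsp in other neurons (-0.49 to 0.19), Thrsp in maturing cells (-1.19 to 0.014) Hmgcs1 in mitotic over S phase cells (-0.090 to 0.058), and the sterol medians of endothelial cells (-0.13 to 0.016), other neurons (-0.21 to 0.086) and monocyte or dendritic cells (-0.082 to 0.26), none of them called; the fibroblast median changed sign with the stricter cell filter and in the largest cluster alone. Thrsp ran from -1.43 to -0.60 in progenitors, -1.83 to -0.51 in newly postmitotic, -2.83 to -1.05 in erythroid and 0.49 to 1.17 in endothelial cells when a library was left out. The causes were not tested.

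Counts over all genes moved more: 275 genes in endothelial cells became 738 without the filter, 609 without NdpKO replicate 2 and 422 without NdpWT replicate 2, and 1 gene in S phase became 67 without the filter and 103 without NdpWT replicate 2. With the replicate number as a block, 1 member (Thrsp) was called in each of progenitor, S phase and mitotic cells, and 32, 93 and 34 genes in all, and 723 genes in endothelial cells. Same-numbered libraries had correlated deviations of 0.095 to 0.37 in every group tested except erythroid cells, at -0.0979. The labels do not tie the numbers to the matched litters, so they were not taken as pairing the samples. Thrsp rests on few UMIs: 12 to 71 a library in mitotic, 3 to 23 in newly postmitotic and 1 to 8 in intermediate cells.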
